A study of Mus musculus with 21 samples.

Results

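Effector and memory fate transcription factors are a set of 10 nuclear regulators that help decide what an activated CD8+ T cell becomes, and their expression was compared across 3 culture media. The 10 genes (*Prdm1*, *Rora*, *Tbx21*, *Eomes*, *Id2*, *Id3*, *Bcl6*, *Batf*, *Irf4* and *Zeb2*) were chosen by name, with earlier results of these data known. Each was represented by the array row with the highest mean over all 21 arrays. Of the 10 genes, 9 were measured among 19505 genes, and *Zeb2* is not analysed here. Expression was read on 21 Affymetrix arrays of CD8+ T cells from wildtype mouse spleen, 7 biological replicates for each medium. T cells in all groups were stimulated with beads that engage CD3 and CD28, held in culture for 48 h, and CD8+ cells were then purified again with magnetic beads. The fresh group was kept in fresh medium. The DC group was kept in the filtered supernatant of dendritic cells grown from bone marrow (BMDCs), and the AML group in that of WEHI 3B cells. WEHI 3B is a myelomonocytic leukaemia line of the mouse and stands for acute myeloid leukaemia (AML), so every AML sample rests on 1 cell line. The ages of the mice are not given in the labels.

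A CD8+ T cell that meets antigen divides and its progeny part into short-lived effector cells, which kill and secrete cytokines, and memory precursors, which persist. *Tbx21* (T-bet), *Prdm1* (Blimp-1), *Id2* and *Zeb2* are known to favour the effector branch, while *Eomes*, *Id3* and *Bcl6* favour memory. *Batf* and *Irf4* act early, downstream of the antigen receptor, and *Rora* encodes a nuclear receptor best known from interleukin-17-producing T cells and innate lymphoid cells.

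All values are log2 levels normalized by the authors, so a difference of 1 is a doubling. Levels of different genes are set beside each other only as a rough guide, because their probes differ. Tests were made with limma over all genes and arrays, with Benjamini-Hochberg adjustment, and calls were made where the adjusted p was under 0.05. The arrays of 1 medium correlated with each other at 0.984 or more over all genes. The AML arrays fell apart into sets for several of the genes described here: replicates 4 and 5 lay farthest from the other media, and replicates 6 and 7 lay closest to them. Results that rest on these arrays are given with and without replicates 4 and 5. The labels do not say what sets these replicates apart. The CD8+ T cell markers (6 of 6 measured) were high on every array, with a mean level between 10.8 and 11.1, and none was called in any comparison. One label field names reticular cells. The markers of that cell type (5 measured) averaged 4.66 to 5.00 on the 21 arrays, and none was called. Of the 5, 3 averaged below the median level of all genes.

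The first comparison sets activated CD8+ T cells kept in the supernatant of the leukaemia line against those kept in fresh medium. Which property of the supernatant lies behind a difference was not tested. Between AML-conditioned and fresh medium, 3 of the 9 fate factors were called. *Prdm1* fell 2.41-fold and *Rora* fell 1.54-fold, while *Eomes* rose 1.63-fold (2-sided limma test, 7 arrays a group). The remaining 6, *Tbx21*, *Id2*, *Id3*, *Bcl6*, *Batf* and *Irf4*, did not pass the test. Of the 9 factors, only *Prdm1* had a mean level below the median level of all genes. Over all genes 541 of 19505, or 2.77%, were called in this comparison, with 253 (1.3%) higher and 288 (1.48%) lower. Higher calls made up 46.8% of all calls, and 59.5% when each array was centred on its median. The median difference of the 9 factors was 0.07, beside -0.01 over all genes.

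**Figure D1:**
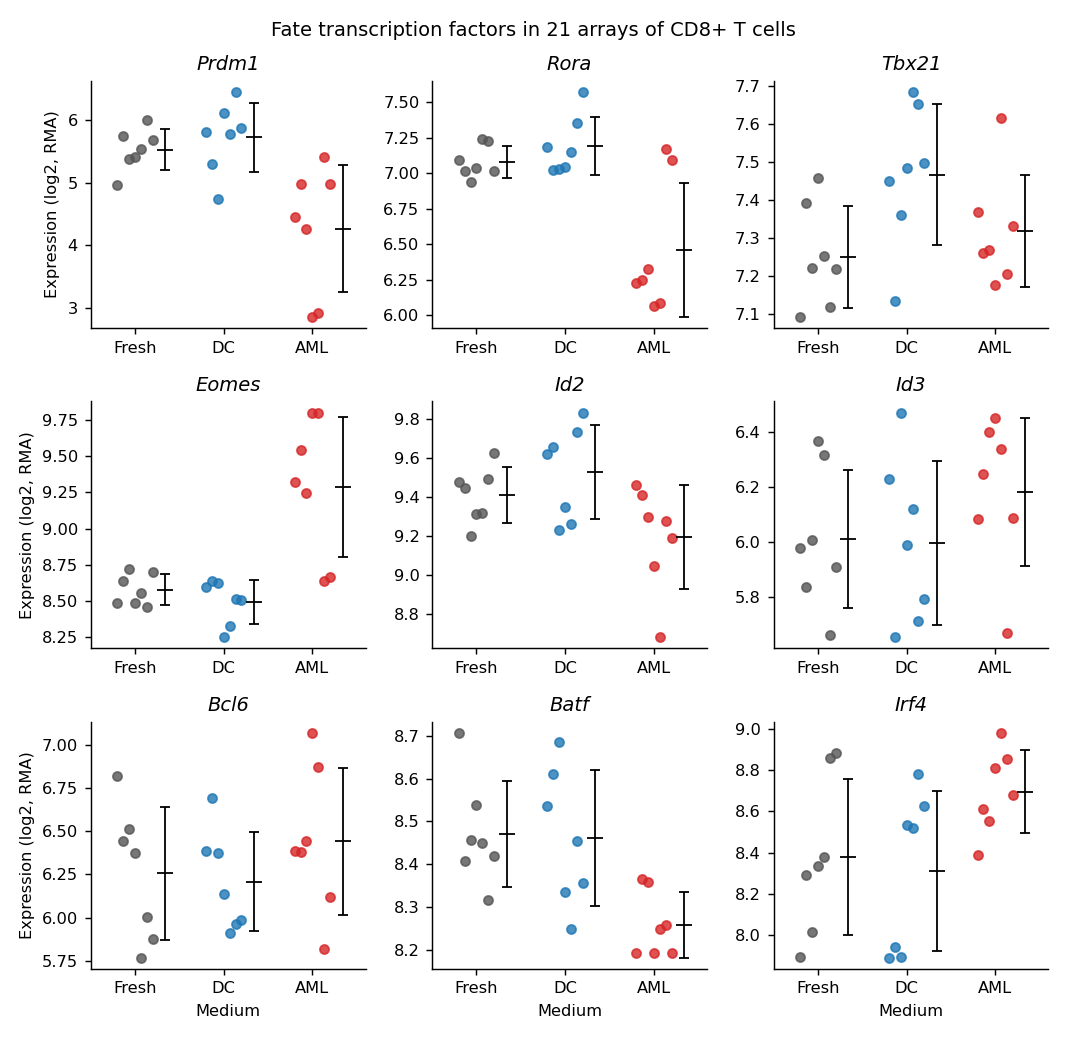
Log2 expression (RMA, vertical axes, scaled per gene) of the 9 measured fate transcription factors on 21 arrays, by medium. Each point is 1 array, and the bar beside each group is the mean with its SD (n = 7). In AML-conditioned medium 5 arrays of *Rora* lie below, and 5 arrays of *Eomes* above, all 14 arrays of the other media.

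*Prdm1* encodes Blimp-1, a zinc-finger repressor that drives terminal effector differentiation and silences *Bcl6*. It is read from the minus strand of chromosome 10, and the 250 bases before its start are shown with those of *Eomes*, since these 2 genes carried the largest fall and the largest rise among the fate factors. The windows are from RefSeq, build GRCm38.p6, written 5′ to 3′ on the gene's strand, with motif matches in capitals.
Prdm1, chr10:44458749-44458998: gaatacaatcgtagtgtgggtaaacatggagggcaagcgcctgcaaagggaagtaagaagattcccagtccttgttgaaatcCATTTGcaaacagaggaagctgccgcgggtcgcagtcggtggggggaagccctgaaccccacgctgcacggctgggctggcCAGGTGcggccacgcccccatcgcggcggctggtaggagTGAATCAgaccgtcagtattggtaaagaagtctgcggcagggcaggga
Eomes, chr9:118477939-118478188: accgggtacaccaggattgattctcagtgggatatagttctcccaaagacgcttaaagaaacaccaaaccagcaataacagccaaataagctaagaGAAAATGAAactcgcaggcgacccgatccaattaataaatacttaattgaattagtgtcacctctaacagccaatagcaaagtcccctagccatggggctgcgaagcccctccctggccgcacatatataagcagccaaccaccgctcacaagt
The search covered 7 motifs on both strands, each tied to a factor of the set: AGGTGTGA for T-box factors, AGGTCA for *Rora*, CANNTG (the E-box) for E proteins held back by Id2 and Id3, TGANTCA for Batf with a Jun protein, GAAANNGAA for *Irf4*, GNGAAAG for Blimp-1, and TTCNNNGAA for Bcl6 and STAT proteins. The *Prdm1* window held an E-box, CATTTG, 168 to 163 bases before the start, another, CAGGTG, at 87 to 82, and the AP-1 type match TGAATCA at 48 to 42. Of 32851 RefSeq windows of this length, 66.2% hold CANNTG and 6.75% hold TGANTCA. The *Eomes* window, on the plus strand of chromosome 9, held the interferon regulatory factor type match GAAAATGAA, 154 to 146 bases before the start, and 7.13% of all windows hold that motif. No matches overlap in these windows. None of the 7 motifs was found in the window of *Rora*. The other motifs occur in 1.12% (AGGTGTGA), 14% (AGGTCA), 19.4% (GNGAAAG) and 7.02% (TTCNNNGAA) of all windows. These are matches of letters, with no binding measured here.

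On the 7 fresh arrays *Prdm1* ranged from 4.96 to 6.00 with a median of 5.54, and on the 7 DC arrays from 4.74 to 6.45 with a median of 5.82. The AML arrays read 4.45, 4.97, 4.27, 2.86, 2.92, 5.42 and 4.98 for replicates 1 to 7. Replicates 4 and 5 thus lay far below the rest, 4 of 7 AML arrays were under all 14 arrays of the other media, and the other 3 overlapped them. On AML replicates 4 and 5 the plasma cell marker *Jchain* read 2.87 and 2.97, and the granulocyte precursor marker *S100a8* 2.78 and 2.55. These were the lowest of their lists there. The other plasma cell markers read from 3.26 and 3.11 (*Mzb1*) up to 9.84 and 10.05 (*Xbp1*). The other granulocyte precursor markers read from 3.26 and 2.92 (*Ctsg*) up to 6.05 on both arrays (*Elane*). *Prdm1* thus read about as low there as the lowest markers of these other cell types. RMA compresses low values, so the folds given for *Prdm1* are a rough guide. The mean was 5.53 ± 0.33 (SD, n = 7) in fresh and 4.27 ± 1.01 (SD, n = 7) in AML-conditioned medium. The difference was -1.27 (SE 0.32, 95% interval -1.93 to -0.60, limma adjusted p = 0.0322). Without AML replicates 4 and 5 it was -0.72, with an adjusted p of 0.198, and without only the fourth or only the fifth AML replicate it was -1.03 or -1.04, with adjusted p-values of 0.0809 and 0.0890. Adjusted p-values of this difference ran from 0.00747 to 0.198 over all alternatives tried, and 13 of 33 ended the call, 8 of them by the loss of 1 array.

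*Rora* encodes the retinoic acid receptor-related orphan receptor alpha, a DNA-binding nuclear receptor. Fresh arrays lay in a narrow range, from 6.94 to 7.24 with a median of 7.04, and DC arrays ranged from 7.03 to 7.57 with a median of 7.15. In AML-conditioned medium the 7 arrays read 6.23, 6.25, 6.32, 6.06, 6.09, 7.17 and 7.09. The first 5 of these lay below every array of the other media, and replicates 6 and 7 sat inside their range. The means were 7.08 ± 0.11 (SD, n = 7) in fresh and 6.46 ± 0.47 (SD, n = 7) in AML-conditioned medium, a difference of -0.62 (SE 0.15, 95% interval -0.92 to -0.32, limma adjusted p = 0.0216). Without AML replicates 4 and 5 it was -0.47 (adjusted p = 0.183), and without either of them -0.56 (adjusted p = 0.0613 and 0.0653). The limma adjusted p ran from 0.00157 to 0.878 when other array rows of *Rora* were counted among the alternatives. The 0.878 belongs to such a row, the third transcript cluster described next, and not to a processing choice. Among the remaining alternatives the highest was 0.265, with replicates 4 to 7 alone.

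The array carries 3 transcript clusters named *Rora*. The second, with a fresh mean of 6.21, also fell, by 0.74 (SE 0.17, limma adjusted p = 0.0182 among 19572 transcript clusters). The third, with a fresh mean of 3.56, differed by -0.04 and was not called (adjusted p = 0.878). The 3 clusters thus did not give 1 answer, and the difference was seen in those with the higher readings.

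*Eomes* encodes Eomesodermin, a T-box factor related to T-bet that supports memory cells and their response to interleukin-15. It ranged from 8.46 to 8.72 (median 8.56) on fresh arrays and from 8.25 to 8.64 (median 8.52) on DC arrays. The AML arrays read 9.32, 9.54, 9.25, 9.80, 9.80, 8.64 and 8.67. As for *Rora*, the first 5 stood clear of all 14 other arrays, here above them, and replicates 6 and 7 fell among the fresh arrays. The mean rose from 8.58 ± 0.11 (SD, n = 7) to 9.29 ± 0.48 (SD, n = 7), a difference of 0.71 (SE 0.14, 95% interval 0.41 to 1.01, limma adjusted p = 0.00844). It stayed called when any 1 array was left out. Without AML replicates 4 and 5 together the difference was 0.50 (adjusted p = 0.0705, beside 0.000924 to 0.188 over all alternatives), so that none of the 9 factors was then called, and 111 genes in all were.

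**Figure D2:**
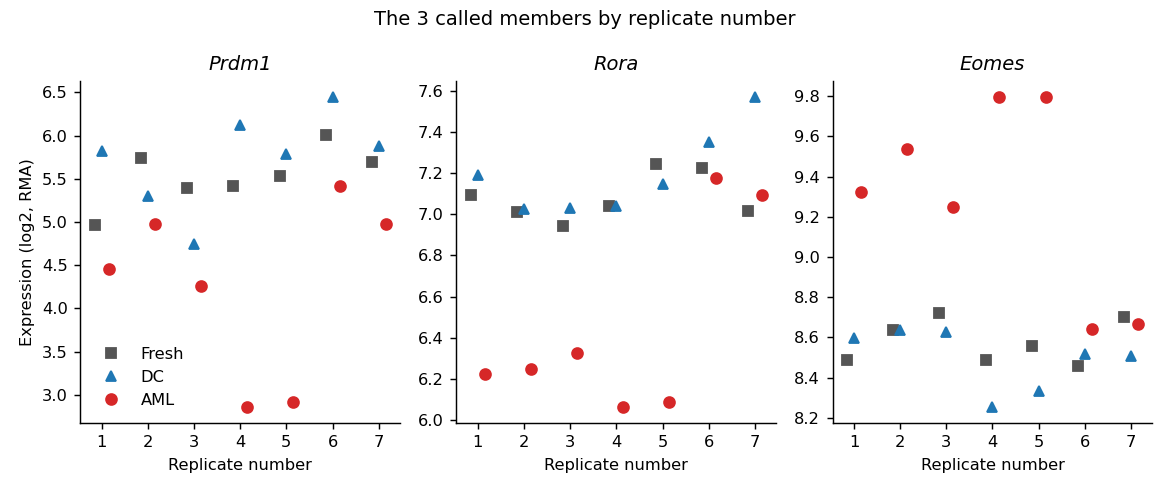
Log2 expression (RMA, vertical axes) of *Prdm1*, *Rora* and *Eomes* by replicate number (horizontal axes), 1 point per array, squares for fresh, triangles for DC-conditioned and circles for AML-conditioned medium. AML replicates 4 and 5 hold the extremes of all 3 genes, and AML replicates 6 and 7 lie among or next to the other media.

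The spread among AML arrays exceeded that among fresh arrays for these 3 genes, with a variance 9.48 times as large for *Prdm1*, 17.01 times for *Rora* and 20.0 times for *Eomes*. For *Batf* it was 0.38 times and for *Irf4* 0.28 times that of the fresh arrays. The test shared 1 estimate of the spread among the 3 media. When the fit held the AML and fresh arrays alone, *Eomes* was called (adjusted p = 0.0363), and *Prdm1* (0.0645) and *Rora* (0.0584) were not.

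The 7 replicates of each medium also differed by set. In replicates 1 to 3 the AML minus fresh difference was -0.80 for *Prdm1*, -0.75 for *Rora* and 0.75 for *Eomes*. In replicates 4 to 7 it was -1.62, -0.53 and 0.68. All 3 genes kept their direction in both sets. Within replicates 4 to 7, however, AML replicates 6 and 7 lay near the fresh mean. They read 7.17 and 7.09 for *Rora* (fresh mean 7.13) and 8.64 and 8.67 for *Eomes* (8.55). For *Prdm1* they read 5.42 and 4.98 (5.66). The differences in replicates 4 to 7 thus came mostly from AML replicates 4 and 5. With replicates 1 to 3 alone *Rora* and *Eomes* were called (limma adjusted p = 0.00324 for *Eomes*) and *Prdm1* was not (0.167). Of all genes 374, or 1.92%, were called in that set. With replicates 4 to 7 alone none of the 9 was called, and only 32 of all genes (0.164%) were. With so few calls in all, the lack of a called factor there says little about the factors.

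*Tbx21* encodes T-bet, the T-box factor that switches on interferon gamma and the cytotoxic programme. Its levels ranged from 7.09 to 7.46 on fresh arrays, from 7.18 to 7.62 on AML arrays and from 7.13 to 7.69 on DC arrays, so that the 3 media overlapped throughout. The AML minus fresh difference was 0.07 (95% interval -0.11 to 0.24, limma adjusted p = 0.776). A change of *Tbx21* as large as the 0.71 measured for *Eomes*, its T-box relative, lies outside that interval.

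*Id2* and *Id3* encode inhibitors that bind E proteins and keep them off DNA, the former linked to effector and the latter to memory cells. *Id2* ranged from 9.20 to 9.62 on fresh and from 8.68 to 9.46 on AML arrays, with 3 AML arrays, replicates 4, 5 and 7, under all 14 others. The difference of -0.22 (95% interval -0.45 to 0.02) was not called (limma adjusted p = 0.359). Replicates 1 to 3 gave 0.01, and replicates 4 to 7 gave -0.39. *Id3* ranged from 5.66 to 6.37 on fresh and from 5.67 to 6.45 on AML arrays, almost the same span, with a difference of 0.17 (-0.10 to 0.45, adjusted p = 0.586).

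*Bcl6* encodes a repressor that opposes Blimp-1 and is needed for memory precursors and follicular helper T cells. Fresh arrays ranged from 5.77 to 6.82 and AML arrays from 5.82 to 7.07, and the 2 highest of all 21 were AML replicates 4 and 5, the arrays lowest in *Prdm1*. The difference was 0.18 (95% interval -0.18 to 0.55, limma adjusted p = 0.678). It ran in opposite directions by set, at -0.19 in replicates 1 to 3 and 0.47 in replicates 4 to 7, and was -0.03 without AML replicates 4 and 5. In fresh medium itself *Bcl6* averaged 6.59 in replicates 1 to 3 and 6.00 in replicates 4 to 7, and in DC-conditioned medium 6.49 and 6.00.

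*Batf* encodes a basic leucine zipper protein that pairs with Jun proteins and, with the product of *Irf4*, opens chromatin early after activation. *Batf* ranged from 8.32 to 8.71 on fresh arrays and from 8.19 to 8.37 on AML arrays, and 5 of 7 AML arrays were below all 7 fresh ones. The difference was small, -0.21 (SE 0.07, 95% interval -0.36 to -0.06), and did not pass over all genes (limma unadjusted p = 0.00787, adjusted p = 0.123). It was similar in both sets, -0.22 in replicates 1 to 3 and -0.21 in replicates 4 to 7, and *Batf* had the narrowest AML spread of the 9 factors (SD 0.08).

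*Irf4* encodes an interferon regulatory factor whose level follows the strength of the antigen receptor signal. It ranged from 7.89 to 8.88 on fresh arrays and from 8.39 to 8.98 on AML arrays, with a difference of 0.32 (95% interval -0.01 to 0.65, limma adjusted p = 0.340). Replicates 1 to 3 differed by 0.45 and replicates 4 to 7 by 0.22. Fresh arrays averaged 8.07 in the first of these sets and 8.61 in the other, and DC arrays 7.91 and 8.62, so that both media held a low and a high set.

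**Figure D3:**
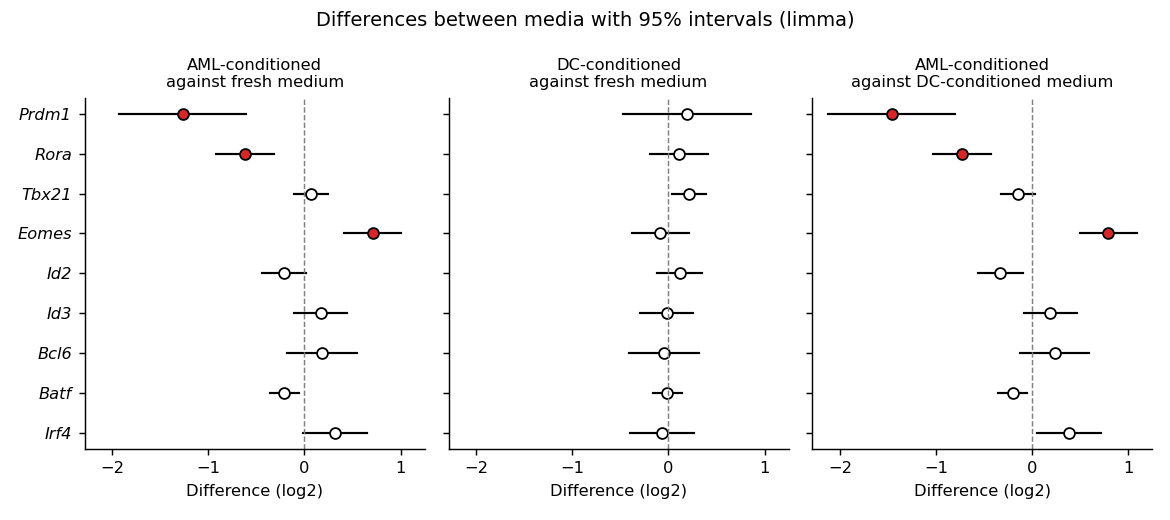
Log2 differences (horizontal axes) of the 9 fate factors in the 3 comparisons of media, with 95% intervals from limma (7 arrays a medium). Filled points were called at an adjusted p under 0.05, which holds for *Prdm1*, *Rora* and *Eomes* in both comparisons with AML-conditioned medium and for no factor between DC-conditioned and fresh medium.

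Between DC-conditioned and fresh medium no fate factor was called. None of the 19505 genes was (0%), with a smallest limma adjusted p of 0.0550 and 1251 genes at an unadjusted p under 0.05. The factor with the smallest p was *Tbx21*, which read 7.25 ± 0.13 (SD, n = 7) in fresh and 7.47 ± 0.19 (SD, n = 7) in DC-conditioned medium. That difference, 0.22 (95% interval 0.04 to 0.39), had an unadjusted p of 0.0182 and an adjusted p of 0.708, and 4 of 7 DC arrays were above all fresh arrays. The 3 genes called after AML-conditioned medium showed differences of 0.19 for *Prdm1* (-0.47 to 0.86), 0.11 for *Rora* (-0.19 to 0.41) and -0.08 for *Eomes* (-0.38 to 0.22). For *Rora* and *Eomes* these intervals leave out changes of the size seen after AML-conditioned medium, and for *Prdm1* the interval leaves out a fall of that size. The remaining differences were 0.12 for *Id2*, -0.02 for *Id3*, -0.05 for *Bcl6*, -0.01 for *Batf* and -0.07 for *Irf4*, all within intervals that span 0.

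Set against DC-conditioned medium, the AML arrays gave the same 3 called fate factors. This comparison shares its AML arrays with the first, so it is no separate evidence for them. Of all genes 466, or 2.39%, were called, with 220 (1.13%) higher and 246 (1.26%) lower. *Prdm1* read 5.73 ± 0.56 (SD, n = 7) in DC-conditioned medium and was lower by -1.46 after AML-conditioned medium (SE 0.32, 2.76-fold, limma adjusted p = 0.0153). *Rora* differed by -0.73 (SE 0.15, 1.66-fold lower, adjusted p = 0.00849). *Eomes* differed by 0.79 (SE 0.14, 1.73-fold higher, adjusted p = 0.00457), and here all 7 AML arrays exceeded all 7 DC arrays, if only narrowly for replicates 6 and 7. The second *Rora* transcript cluster was also called, at -0.67 (adjusted p = 0.0340), and the third was not, at 0.14 (adjusted p = 0.535). Without AML replicates 4 and 5, only *Eomes* of the 9 was called (0.59, limma adjusted p = 0.0345, beside 0.000409 to 0.114 over all alternatives). The adjusted p-values were then 0.0831 for *Prdm1* and 0.0799 for *Rora*, and 92 of all genes (0.472%) were called. *Prdm1* also lost its call against DC-conditioned medium in replicates 1 to 3 alone, at -0.72 (adjusted p = 0.274), and when the fit held these 2 media alone (adjusted p = 0.0516), beside 0.00277 to 0.274 over its alternatives.

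The other 6 factors were not called against DC-conditioned medium in the fit without a block. *Id2* differed by -0.33 (95% interval -0.56 to -0.10, limma adjusted p = 0.128) and *Irf4* by 0.38 (0.05 to 0.71, adjusted p = 0.249), with 3 AML arrays of *Irf4* above all DC arrays. *Irf4* was called there in replicates 1 to 3 alone (0.61, adjusted p = 0.0198) and with the set of replicates as a block (0.38, adjusted p = 0.0225), beside 0.0198 to 0.663 over all its alternatives. *Batf* differed by -0.20 (-0.35 to -0.05, adjusted p = 0.163), with 4 AML arrays below all DC arrays. The differences of *Tbx21* (-0.15), *Id3* (0.19) and *Bcl6* (0.23) had intervals that include 0.

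Genes around these factors were read from fixed lists, which were also chosen with earlier results of these data known. Each list is described by its counts beside the 2.77% of all genes called between AML-conditioned and fresh medium. Among other regulators of CD8+ T cell fate, 33 of 36 listed genes were measured, 1 rose, 1 fell and 31 were not called, with a median difference of 0.04. *Tox*, a nuclear factor of persisting and exhausted T cells, rose by 0.52 (SE 0.09, limma adjusted p = 0.00221). *Hopx*, a homeodomain protein without DNA binding that marks effector and resident cells, fell by 0.48 (SE 0.10, adjusted p = 0.00824). Against DC-conditioned medium *Tox* was higher by 0.66 (adjusted p = 0.000181) and was the only gene of the list called. Without AML replicates 4 and 5 *Tox* was still called in both comparisons, at 0.43 (adjusted p = 0.0210) and 0.57 (adjusted p = 0.00143), and *Hopx* against fresh medium was not (adjusted p = 0.0554).

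Receptors for the cytokines that set these factors were measured for 15 of 16 genes. Of these, 3 were called higher and 1 lower after AML-conditioned against fresh medium, with a median of 0.24. *Il6ra*, the interleukin-6 receptor chain, rose by 0.79 (SE 0.16, limma adjusted p = 0.00831), and *Tgfbr1*, a receptor of transforming growth factor beta, rose by 0.57 (SE 0.12, adjusted p = 0.00856). *Ifngr1*, a chain of the interferon gamma receptor, fell by 0.60 (SE 0.15, adjusted p = 0.0351). Against DC-conditioned medium *Il6ra* (0.89), *Il15ra* (0.34), which presents interleukin-15, and *Il7r* (0.29), the interleukin-7 receptor, were called higher. None was called lower, and *Ifngr1* differed by -0.45 without a call (limma adjusted p = 0.140). Of the 15 measured, 11 had a difference above 0. Without AML replicates 4 and 5 the calls that remained were *Il6ra* and *Tgfbr1* against fresh medium and *Il6ra* against DC-conditioned medium.

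Of the genes that mark effector cells, 15 of 16 were measured. None was called higher and 2 were called lower against fresh medium, with a median of -0.12. *Gzma*, a granule protease, fell by 2.23 (SE 0.40, limma adjusted p = 0.00324), from 9.004 ± 0.56 (SD, n = 7) to 6.77 ± 1.23 (SD, n = 7). *Ccl5*, a chemokine of effector and memory cells, fell by 0.80 (SE 0.21, adjusted p = 0.0401). *Gzma* was called against DC-conditioned medium too, at -2.34, and in both comparisons without AML replicates 4 and 5, at -1.54 and -1.65. *Ccl5* was not called without them (adjusted p = 0.214). Among genes of memory and naive cells, 8 of 10 were measured. *Xcl1*, a chemokine that attracts dendritic cells, rose by 0.89 (adjusted p = 0.0403) and was the only one called; without AML replicates 4 and 5 its adjusted p was 0.228. The list of type 17 genes, measured for 6 of 6, had none called in either comparison with AML-conditioned medium, and all 6 averaged below the median level of all genes. Between DC-conditioned and fresh medium no gene of these 5 lists was called.

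**Figure D4:**
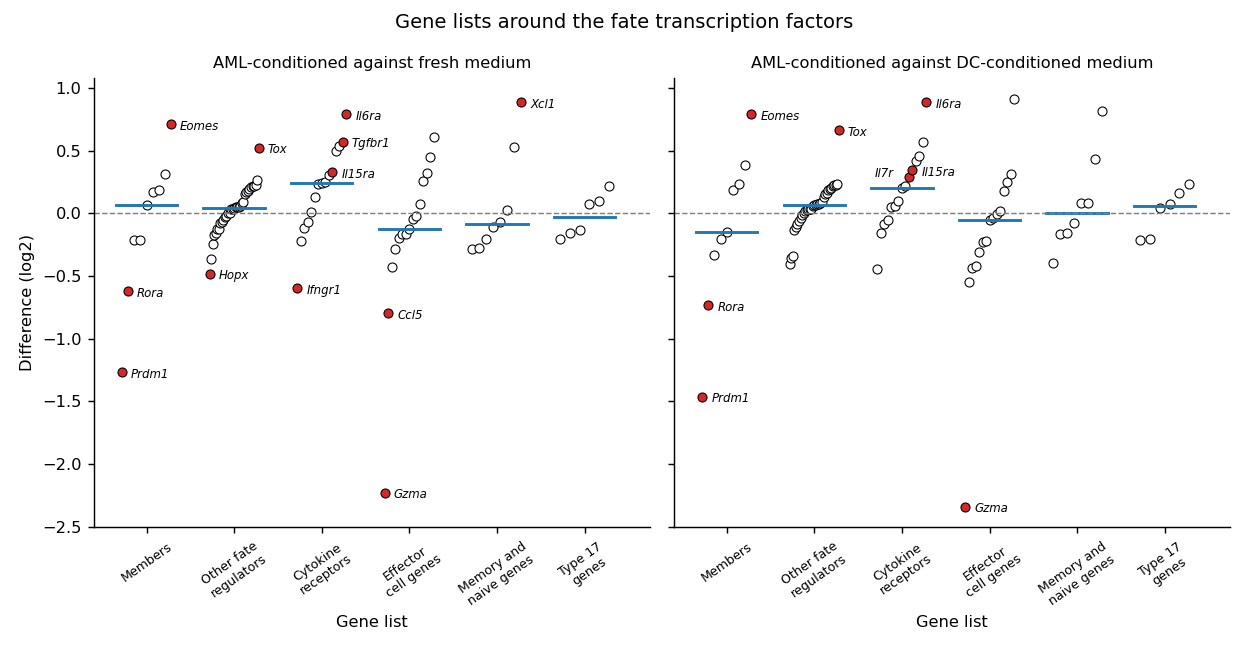
Log2 differences (vertical axes) of each measured gene of 6 lists in both comparisons with AML-conditioned medium, 1 point per gene, with each list's median as a horizontal line. Filled, named points were called by limma at an adjusted p under 0.05, and most genes of every list lie between -0.5 and 0.5.

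Markers of other cell types were read beside these results, since in bulk RNA fewer cells of a type and less RNA per cell cannot be told apart. Of 4 measured CD4+ T cell markers, *Cd4* rose by 0.79 (limma adjusted p = 0.0150) between AML-conditioned and fresh medium, and without AML replicates 4 and 5 it differed by 0.81 and was not called (adjusted p = 0.0622). All 4 markers had a difference above 0 there, from 0.17 to 0.84 (median 0.55), and only *Cd4* was called. Against DC-conditioned medium all 4 were above 0 too (median 0.44), and 0 were called. The list's mean level ranged from 6.78 to 7.43 on fresh, 7.23 to 7.75 on AML and 6.96 to 7.29 on DC arrays. Its part in the results was not tested. Of 6 dendritic cell markers, 5 averaged below the median level of all genes, and *H2-Ab1*, an MHC class II chain, fell by 1.33 (adjusted p = 0.0168) against fresh medium and was lower against DC-conditioned medium too, at -1.39 (adjusted p = 0.0138). Neither difference of *H2-Ab1* was called without AML replicates 4 and 5, at -0.82 (adjusted p = 0.0985) and -0.88 (adjusted p = 0.0763). On the AML arrays it read 6.77, 7.39, 6.89, 5.60, 5.80, 8.15 and 8.11, lowest in the same 2 arrays as *Prdm1* and highest in replicates 6 and 7. The dendritic cell list averaged 4.47 to 4.66 on fresh, 4.15 to 4.67 on AML and 4.42 to 4.74 on DC arrays, and its part in the results was not tested. In the lists of B cells, plasma cells, NK cells, macrophages and monocytes, granulocyte precursors and gamma delta T cells no marker was called. Plasma cells, which also express *Prdm1*, had 4 of 5 markers below the median level of all genes, and the list averaged 4.57 to 4.82 on fresh and 4.66 to 4.84 on AML arrays.

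The genes whose pattern over the 21 arrays was most like that of each called factor were named by Pearson's r, as a description. The 21 arrays share the split between media, and r over the 14 fresh and DC arrays is given beside them. For *Prdm1* they were *Pgk1* (0.956 over 21 arrays, 0.775 over 14), *Slamf7* (0.947 and 0.799) and *Fgl2* (0.947 and 0.812). *Pgk1* encodes a glycolytic enzyme, and *Slamf7* a surface receptor of activated lymphocytes. For *Rora* they were *Alcam* (0.951 and 0.643), *Clcn3* (0.946 and 0.580) and *Slc2a3* (0.942 and 0.611), an adhesion molecule, a chloride transporter and a glucose transporter. For *Eomes* they were *Cyth3* (0.964 and 0.574), *Trpm1* (0.959 and 0.667) and *H2-Q4* (0.939 and 0.676), the last of a family of near-identical genes whose probes may be shared. In each case r was lower without the AML arrays. The genes were picked by r over all 21 arrays, so no conclusion is drawn from that drop.

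**Figure D5:**
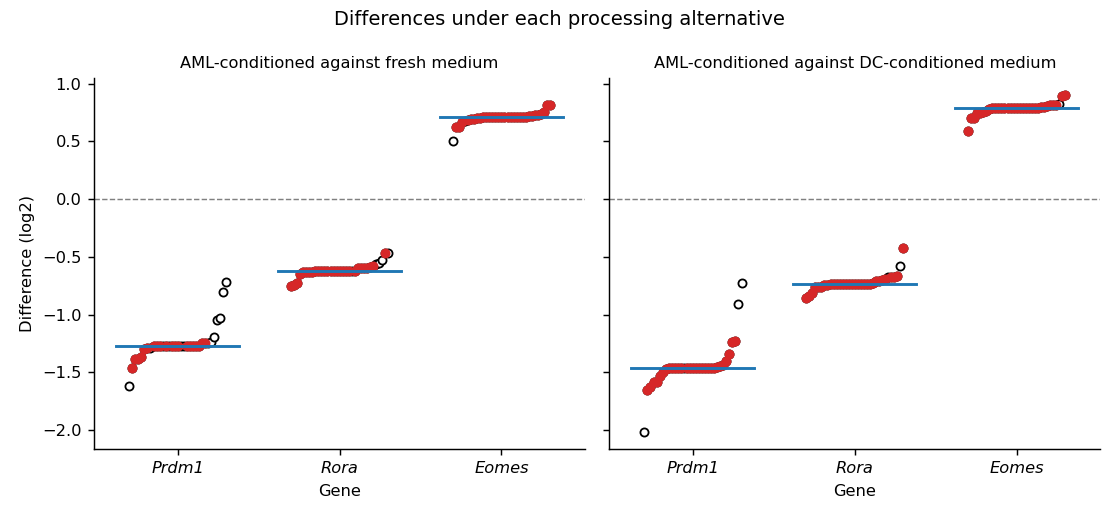
Log2 differences (vertical axes) of *Prdm1*, *Rora* and *Eomes* under each of 33 processing alternatives, ordered by value within a gene, with the reported value as a horizontal line. Filled points were called by limma at an adjusted p under 0.05. Every point of *Prdm1* and *Rora* lies below 0 and every point of *Eomes* above it, and the open points are most frequent for *Prdm1* against fresh medium.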

How the data were processed

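RNA of 21 samples was hybridised to 1-colour Affymetrix arrays after labelling with the WT Pico kit, per the labels' protocols. The authors deposited log2 values, 1 per transcript cluster and array. The submitters' processing notes name RMA and the oligo package, and versions and genome build are not given in the sources used here. RMA subtracts a modelled background, equalizes the arrays by quantiles and combines a cluster's probes, which compresses low values, and it gives no signal over background. The number of arrays limits the precision.

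Of 22203 transcript clusters, 19572 had 1 symbol, 0 several and 2631 none. Where a symbol had more than 1 (55 symbols), the cluster with the highest mean was kept, which left 19505 genes, with no filter on level. Groups follow the sample labels. limma 3.58.1 in R 4.3.3 (lmFit, eBayes) was fitted to all 21 arrays without covariates, with 2-sided tests and Benjamini-Hochberg adjustment over all genes per comparison, and was tested on simulated data. The labels number replicates 1 to 7 in each medium without saying what a number shares, and p-values treat the samples as independent.

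The fate factors, the gene lists, the split into replicates 1 to 3 and 4 to 7 and the alternatives were chosen with earlier results of these data known. Named were all fate factors, up to 3 called genes per list and comparison with the largest difference, and the 3 genes nearest in pattern to each called factor. Alternatives were the replicate number or set as a block, each set alone, the 2 media of a comparison alone, array weights, other scalings, a level filter, averaged transcript clusters, trend and robust eBayes, and each array left out. Each *Rora* transcript cluster as a row of its own and the lists without AML replicates 4 and 5 were added after seeing the data. *Zeb2* and listed genes without a matching symbol are not analysed here.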

Additional observations from a re-analysis of the deposited data

How the results depend on the processing

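With 33 alternatives per comparison, *Prdm1*, *Rora* and *Eomes* kept their direction in both comparisons with AML-conditioned medium. Against fresh medium 3 fate factors were called, and the number was 0 with replicates 4 to 7 alone, 1 with only the 2 groups compared, 0 without AML replicates 4 and 5, and 1 to 3 with 1 array left out, 1 without AML replicate 4 or AML replicate 5. Against DC-conditioned medium it was 5 with the replicate number as a block, 0 with replicates 4 to 7 alone, 1 without AML replicates 4 and 5, and 3 to 3 with 1 array left out. No factor was called between DC-conditioned and fresh medium in any alternative. Whether the replicate numbers pair the arrays is not settled, and they were not treated as pairs: of 21 same-numbered pairs 13 had residuals correlated above 0.1 (range -0.109 to 0.364), and in 10 of 21 the own number was best. The block added *Id2* (-0.33, limma adjusted p = 0.0276, 0.0276 to 0.804 over its alternatives) and *Irf4* (0.38, 0.0236, 0.0198 to 0.663) against DC-conditioned medium. Trend and robust eBayes ended the call of *Prdm1* against fresh medium (adjusted p = 0.0665), and so did the loss of 1 of the fresh replicates 2, 4, 5, 6 and 7 or of the AML replicates 3, 4 and 5 (-1.46 to -1.03 over all arrays left out). The genes called in all, 541 and 466 against fresh and DC-conditioned medium, were 1012 and 784 with the block, 1026 and 797 with the set as a block, 32 and 43 in replicates 4 to 7, 246 and 249 with 2 groups, 111 and 92 without AML replicates 4 and 5, and 218 to 776 and 220 to 784 with 1 array left out. Arrays whose loss moved these counts by over 1.5 times were fresh replicates 2 (299) and 4 (341) and AML replicates 4 (249) and 5 (218) against fresh medium, and DC replicates 4 (308) and 7 (289) and AML replicates 4 (220), 5 (242) and 6 (784) against DC-conditioned medium. Between DC-conditioned and fresh medium 0 to 2 were called. Apart from the third *Rora* transcript cluster, given last, directions turned only for differences that were not called. In replicates 1 to 3 alone these were *Id2* (0.015) and *Bcl6* (-0.19) between AML-conditioned and fresh medium, *Bcl6* (-0.083) against DC-conditioned medium, and *Prdm1* (-0.0757), *Eomes* (0.00623), *Id3* (0.178) and *Batf* (0.0874) between DC-conditioned and fresh medium. *Irf4* there was 0.00262 in replicates 4 to 7 alone, *Id3* and *Batf* were 0.0159 and 0.0224 with median centring, and *Id3* was 0.000435 with a further quantile normalization. *Bcl6* against fresh medium was -0.0276 without AML replicates 4 and 5. With 1 array left out, differences between DC-conditioned and fresh medium ran from -0.147 to 0.0173 for *Irf4*, -0.0952 to 0.0434 for *Id3*, -0.0466 to 0.0299 for *Batf* and -0.13 to 0.0457 for *Bcl6*. *Rora* between DC-conditioned and fresh medium was -0.0495 as the mean of its transcript clusters, -0.0753 for the second and -0.19 for the third, and the third gave 0.14 between AML-conditioned and DC-conditioned medium (limma adjusted p = 0.535). The cause of these shifts was not tested. In 27 groups of 7 values no lone array of a fate factor exceeded Dixon's critical value. That test looks for 1 outlying array and is not suited to arrays that depart together, such as AML replicates 4 and 5.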
